A study of Mus musculus with 2 samples.

Results

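Meis1, Meis2, Pbx3, Tbx18, Pitx1, Hoxa9, Hoxa10 and Hoxa11 are transcription factors that carry positional identity in the developing limb, and their transcripts were measured here in nuclei from injured mouse tibia. The 8 genes were taken by symbol from the 32285 genes of the count tables, and all 8 were found. They were listed with earlier results of these data known. Single-nucleus RNA-seq counts unique molecular identifiers (UMIs, 1 per captured transcript) in each nucleus. Of the series, 2 libraries were analysed. The first held periosteum and hematoma from C57BL6 mice at day 1 after an open, non-stabilized tibial fracture. The second held hematoma and callus from C57BL6 mice at day 5 after musculoskeletal traumatic injury (MTI), in which the muscles around the fractured tibia are also crushed. Both came from adult mice with no transgene or drug. Each library pooled 3 or 4 mice, and its nuclei were sorted on a nucleic acid stain before loading. Each condition was therefore 1 sample. No p-value is given, intervals cover counting error only, and the libraries were not set against each other because day and injury differed together and cannot be told apart.

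Limb cells keep a memory of where along the limb they arose. MEIS and PBX proteins are homeodomain factors of the TALE class that bind DNA together with HOX proteins and sharpen which sites these choose. Meis1 and Meis2 mark the part of the limb bud nearest the body, whereas the posterior HoxA genes are switched on in turn toward the tip: Hoxa9 and Hoxa10 in the upper segments, and Hoxa11 in the zeugopod, the segment that holds the tibia. Pitx1 specifies hindlimb over forelimb, and Tbx18 is a T-box repressor known from somite borders, limb bud mesenchyme and the mural cells of blood vessels. In adult bone, stromal and skeletal progenitor cells are known to keep part of this HOX code.

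In the build of the count tables (mm10), all 8 genes lie on the minus strand, and their identifiers matched the GENCODE M21 annotation. Meis1 (ENSMUSG00000020160) spans chr11:18879817-19018985 and Meis2 (ENSMUSG00000027210) chr2:115863064-116065839. Pbx3 (ENSMUSG00000038718) spans chr2:34171457-34373142. Exons fill 7.57% of the Meis1 span, 5.94% of Meis2 and 3.03% of Pbx3, so most of each gene is intron. Tbx18 (ENSMUSG00000032419) lies at chr9:87702800-87731260 and Pitx1 (ENSMUSG00000021506) at chr13:55825051-55836192. Hoxa9 (ENSMUSG00000038227, chr6:52223100-52231089), Hoxa10 (ENSMUSG00000000938, chr6:52231197-52240854) and Hoxa11 (ENSMUSG00000038210, chr6:52242106-52245810) stand side by side in the HoxA cluster. Exons fill 69.8% of the Hoxa9 span and 33.9% of Hoxa10. Whether counting used the strand of the reads is not given in the sources used here. It is thus not known here whether reads were kept apart for Hoxa11 and Hoxa11os, Tbx18 and D030062O11Rik, or Pbx3 and C79798. The same holds for Meis1 and Gm16140 or Gm16141, and for Pitx1 and Gm47071. On the same strand, Meis1 overlaps 2610001A08Rik, 2900018N21Rik and Gm37818, Pitx1 overlaps Gm28760, and Hoxa9 overlaps Mir196b.

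Upstream sequence from RefSeq (GRCm38.p6) was matched for 6 of the 8 genes. The windows of Tbx18, Hoxa9 and Hoxa10 are printed because these genes were at their highest level in the same nuclei after MTI, as given further on, and because no exon of the gene itself lies in the window. Each is the 250 bases before the annotated start, on the minus strand, at chr9:87731261-87731510 for Tbx18, chr6:52227371-52227620 for Hoxa9 and chr6:52240855-52241104 for Hoxa10. The starts are those of RefSeq. The Tbx18 and Hoxa10 windows adjoin the gene spans given above, whereas the Hoxa9 window lies inside the longer span that GENCODE gives Hoxa9, before an internal start. Hoxa10 has a second window, at chr6:52234940-52235189 inside its span, which is not printed. Capitals mark TGAT, the core of a PBX site, and TAAT, the homeodomain core, read on either strand (a match on the other strand appears as ATCA or ATTA).
Tbx18: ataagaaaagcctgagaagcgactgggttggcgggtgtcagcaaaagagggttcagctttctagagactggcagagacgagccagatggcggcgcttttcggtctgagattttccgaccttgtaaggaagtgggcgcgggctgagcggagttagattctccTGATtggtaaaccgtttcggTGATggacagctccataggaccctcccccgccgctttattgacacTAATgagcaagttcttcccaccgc
Hoxa9: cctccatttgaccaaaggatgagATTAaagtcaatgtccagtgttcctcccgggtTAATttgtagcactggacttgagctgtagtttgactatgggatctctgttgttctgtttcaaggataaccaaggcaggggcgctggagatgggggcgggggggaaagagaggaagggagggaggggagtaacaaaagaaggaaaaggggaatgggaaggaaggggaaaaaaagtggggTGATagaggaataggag
Hoxa10: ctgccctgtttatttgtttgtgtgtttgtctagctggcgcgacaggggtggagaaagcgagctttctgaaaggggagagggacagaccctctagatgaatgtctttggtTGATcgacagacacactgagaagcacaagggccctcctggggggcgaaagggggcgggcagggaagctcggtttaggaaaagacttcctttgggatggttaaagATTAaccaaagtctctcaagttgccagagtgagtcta
The printed bases of Tbx18 held TGAT at 2 places and TAAT at 1, those of Hoxa9 TGAT at 1 and TAAT at 2, and those of Hoxa10 TGAT at 1 and TAAT at 1. The second Hoxa10 window held TGAT at 2 and TAAT at 2 places before its start. Among 32851 RefSeq windows that run from 250 bases before to 50 after a start, 72.9% held TGAT and 58.0% held TAAT on either strand, so these letters are common. Longer motifs were searched on both strands in the same windows. The MEIS core TGACAG was in 19.2% of all windows and, among the members matched, in Tbx18 alone, 19 bases after the start. The PBX-HOX pair TGATTNAT (3.22% of windows, and overlapping TGAT by its letters), the PITX site TAATCC (7.06%, overlapping TAAT) and the T-box core AGGTGTG (5.84%) had no match in the members' windows. The Tbx18 window overlaps an exon of the antisense gene D030062O11Rik. These are matches of letters only.

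The libraries differed in depth. The day 1 table held 48987 barcodes with a median of 157 UMIs, of which 2405 passed the filters with a median of 409, and the MTI table held 1446 barcodes with a median of 2245.5, of which 1127 passed with a median of 2364. The libraries shared 33 barcodes. Nuclei were clustered without the 8 genes and without the other positional genes, and clusters were named "X-like" from marker lists. After MTI this gave 176 skeletal-like nuclei (1026523 UMIs), 127 myogenic-like (895037), 36 endothelial-like (181035), 482 immune-like (1632590), 30 osteoclast-like (205125) and 33 erythroid-like nuclei (169402), with 243 nuclei unnamed. No mural cluster was named at the resolution used. All 25 skeletal markers were present in the skeletal-like nuclei, at 18943 counts per 1000000 UMIs of the class (CPM) summed over the list, against 575 CPM in the immune-like nuclei. The skeletal-like nuclei also held all 9 mural markers, at 778 CPM, and 22 of 24 immune markers, at 358 CPM. Their part in the levels below was not tested. Levels are per UMI of a class, so a gene's CPM also moves with every other gene of that class.

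**Figure D1:**
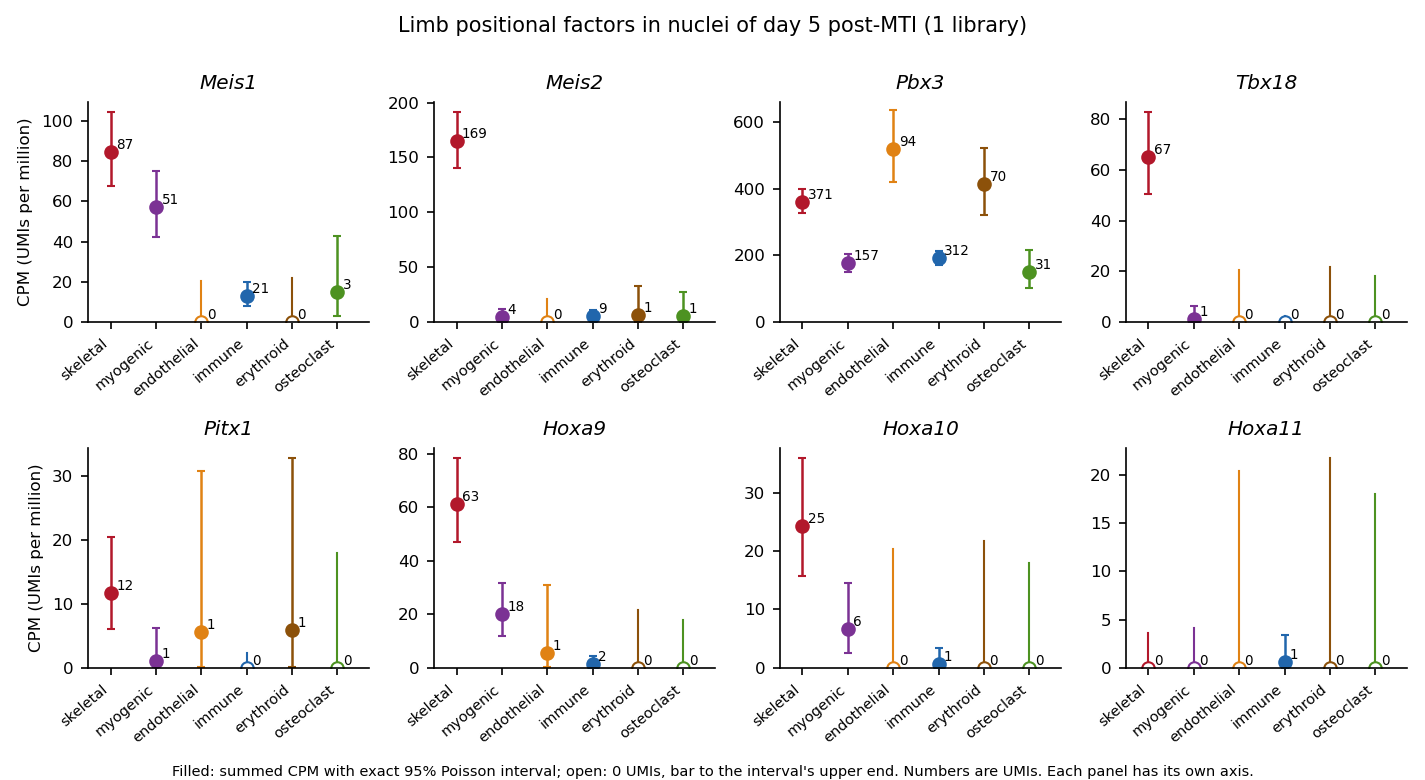
Level of each of the 8 genes (y axis, CPM, UMIs per 1000000 UMIs of the class; each panel has its own axis) in the 6 named classes of nuclei at day 5 post-MTI. Filled points are summed levels with exact 95% Poisson intervals, open points are classes with 0 UMIs with a bar to the upper end of the interval, and numbers are UMIs. Skeletal-like nuclei stand highest for Meis1, Meis2, Tbx18, Hoxa9, Hoxa10 and Pitx1. For Meis1, Hoxa10 and Pitx1 their interval overlaps that of another class. Pbx3 is present in all 6 classes, and Hoxa11 has 1 UMI in all.

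After MTI, 6 of the 8 genes were at their highest level in skeletal-like nuclei, beyond counting error from the next class for all of them but Pitx1. Meis2 reached 165 CPM there, Meis1 84.8, Tbx18 65.3, Hoxa9 61.4, Hoxa10 24.4 and Pitx1 11.7 CPM, while immune-like nuclei held no Tbx18 or Pitx1 UMI and 1 to 21 UMIs of the other 4. Pbx3 was found in every class and was highest in endothelial-like nuclei, at 519 CPM. Hoxa11 had no UMI in skeletal-like nuclei. Against immune-like nuclei, 6 of the 7 members with at least 10 UMIs were 2-fold or more higher in skeletal-like nuclei, where 24.8% of 12569 genes so measured were. Their median log2 ratio was 4.83 (4.90 with a class at 0 set to 3 UMIs), against 0.03 over all those genes, with 0.5 added to each count. Against endothelial-like nuclei 5 of 7 were higher (18.8% of 10299 genes), among them Pitx1 with an interval that held 1, with a median of 3.17 (1.98 with a class at 0 set to 3 UMIs) against -0.02. Against myogenic-like nuclei 6 of 7 were higher (26.2% of 11865 genes), with a median of 1.77 (1.86) against 0.19. The 3 comparisons share the skeletal-like nuclei. In each, Meis2, Tbx18, Pitx1 and Hoxa10 reached 10 UMIs only through these nuclei. So did Hoxa9 against immune-like and endothelial-like nuclei (2 and 1 UMIs there) and Meis1 against endothelial-like nuclei (0 UMIs there). Hoxa11 did not enter. The counts of members called are therefore descriptions and no test. With every nucleus thinned to 500 UMIs before summing, the counts were 2, 0 and 1. Fewer members then reached 10 UMIs, and a class at 0 was still set to 3 UMIs.

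**Figure D2:**
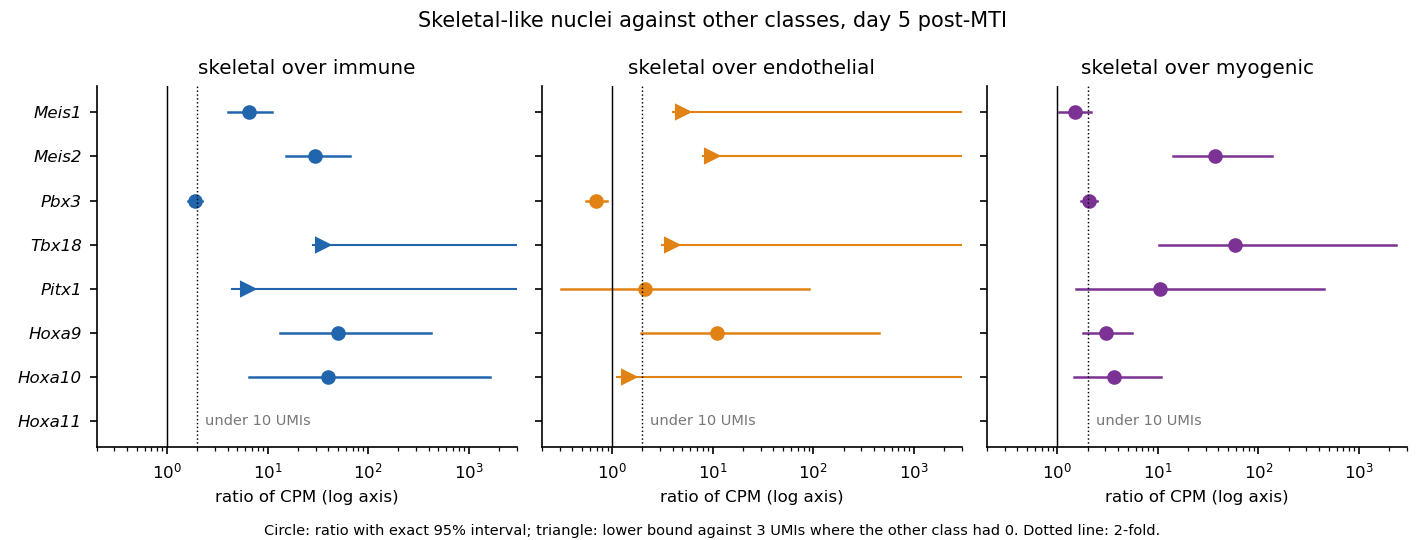
Ratio of levels (x axis, log scale) of skeletal-like nuclei over immune-like, endothelial-like and myogenic-like nuclei at day 5 post-MTI for each gene. Circles are ratios with exact 95% intervals, triangles are lower bounds against 3 UMIs where the other class had 0, the solid line is equal levels and the dotted line 2-fold. Pbx3 over endothelial-like nuclei is the only circle left of equal levels, at 0.696.

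Among the 3 TALE members, Meis2 separated the classes most. Skeletal-like nuclei held 169 Meis2 UMIs, in 61 of 176 nuclei, or 165 CPM (141 to 191). The other classes held 9 UMIs (immune-like, 5.51 CPM), 4 (myogenic-like, 4.47 CPM), 1 (osteoclast-like), 1 (erythroid-like) and 0 (endothelial-like, which allows up to 16.6 CPM). None of their intervals reached the skeletal-like level. The ratio of skeletal-like nuclei was 29.9 (15.4 to 66.4) over immune-like and 36.8 (14.1 to 137) over myogenic-like nuclei, and at least 9.93-fold over endothelial-like nuclei. In the order of levels, skeletal-like nuclei exceeded the next class, erythroid-like with its 1 UMI, by 27.9 (4.94 to 1108). The unnamed nuclei held a further 22 Meis2 UMIs, all in 1 cluster of 177 nuclei, at 130 CPM (81.4 to 197) and in 19 of its nuclei. The median depth of that cluster was 685 UMIs. At that depth a class needed a marker among the 10 leading genes, and none was there.

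Meis1, the closest relative of Meis2, was shared between skeletal-like and muscle nuclei. Skeletal-like nuclei held 87 UMIs in 53 nuclei, or 84.8 CPM (67.9 to 105), and myogenic-like nuclei 51 UMIs in 25 nuclei, or 57.0 CPM (42.4 to 74.9). Immune-like nuclei held 21 UMIs in 16 nuclei, or 12.9 CPM (7.96 to 19.7). Skeletal-like nuclei exceeded myogenic-like by 1.49 (1.04 to 2.14), short of 2-fold and turned to 0.749 at a mitochondrial limit of 0.5%, and immune-like by 6.59 (4.05 to 11.2). Osteoclast-like nuclei held 3 Meis1 UMIs and the endothelial-like and erythroid-like nuclei 0. Meis1 was at least 5.11-fold higher in skeletal-like than in endothelial-like nuclei.

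Pbx3, a PBX partner of both MEIS and HOX proteins, had the broadest range. Its levels were 519 CPM in endothelial-like nuclei (419.6 to 635, 94 UMIs), 413 CPM in erythroid-like (322 to 522, 70 UMIs) and 361 CPM in skeletal-like nuclei (326 to 400.1, 371 UMIs). They were 191 CPM in immune-like (170.5 to 214, 312 UMIs), 175 CPM in myogenic-like (149 to 205, 157 UMIs) and 151 CPM in osteoclast-like nuclei (103 to 215, 31 UMIs). Taken whole, the 6 classes thus fell into a higher and a lower set. Parts of them crossed it, at 131 CPM in a skeletal-like subcluster and 329 CPM in a myogenic-like cluster, given further on. Within the higher set the neighbours did not differ beyond counting error, at 1.26 (0.912 to 1.74) for endothelial-like over erythroid-like and 1.14 (0.873 to 1.48) for erythroid-like over skeletal-like nuclei, while endothelial-like over skeletal-like nuclei was 1.44 (1.13 to 1.81). Skeletal-like over immune-like nuclei was 1.89 (1.62 to 2.21), past counting error and short of 2-fold. Within the lower set neighbours differed by 1.09 and 1.16, with intervals that held 1. Skeletal-like nuclei were 2.06 (1.71 to 2.499) over myogenic-like, and endothelial-like nuclei 2.72 (2.13 to 3.43) over immune-like. In the last comparison Pbx3 was the 1 of 2 members with at least 10 UMIs that was 2-fold higher, beside 19.5% of genes, and in erythroid-like over immune-like nuclei 1 of 3 was (Pbx3, 2.16, 1.64 to 2.81, beside 16.4% of genes). None of 3 was in osteoclast-like over immune-like nuclei (15.3%).

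Single nuclei carried part of the Pbx3 level in the small classes. The endothelial-like UMIs came from 20 of 36 nuclei, 1 of which held 19, and without that nucleus the level was 449 CPM. The erythroid-like UMIs came from 13 of 33 nuclei, and the level was 368 CPM without the highest nucleus. In myogenic-like nuclei 1 nucleus held 28 of the 157 UMIs, and the level was 146 CPM without it. The order of the 2 sets of classes was the same with these nuclei left out. Immune markers summed to 6889 CPM in the erythroid-like nuclei and 934 CPM in the endothelial-like nuclei. Of these markers, Ptprc was 803 CPM in erythroid-like and 1407 CPM in immune-like nuclei, and Adgre1 484 and 593 CPM. The part of immune RNA in the Pbx3 level of the erythroid-like or endothelial-like nuclei was not tested. Within the immune-like class, Pbx3 was 179 CPM (132 UMIs) and 227 CPM (157 UMIs) in the largest clusters, and had 0 UMIs in the cluster led by the neutrophil genes Ltf and S100a9.

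Tbx18 was the member most restricted to skeletal-like nuclei. They held 67 UMIs in 35 nuclei, or 65.3 CPM (50.6 to 82.9). Among the other named classes 1 UMI was found, in a myogenic-like nucleus, and the 482 immune-like nuclei held 0, which allows up to 1.84 CPM. The ratio was at least 35.5-fold over immune-like and at least 3.94-fold over endothelial-like nuclei, and 58.4 (10.1 to 2341) over myogenic-like nuclei. The 10 nuclei richest in Tbx18 held 55.2% of its UMIs, 9 of them in 1 nucleus, and without this nucleus the level was 57.2 CPM. Since Tbx18 is also known from pericytes, its level was read at a clustering resolution of 2 times the one used, where 78 nuclei (64 from the skeletal-like class, 14 unnamed) took the name mural-like. These nuclei held mural markers at 2445 CPM and skeletal markers at 8707 CPM. A mural marker UMI was found in 26 of the 78, and a skeletal marker UMI in 77. Of the 112 nuclei still named skeletal-like, 87 held a mural marker UMI, with mural markers at 494 CPM. The mural-like name therefore does not set mural nuclei apart, and the level below is not that of mural nuclei alone. Tbx18 there was 60.3 CPM (27.6 to 114, 9 UMIs), against 64.9 CPM (49.3 to 83.9) in the 112 nuclei still named skeletal-like. The intervals overlapped, as they did at that resolution for Meis2 (141 and 167 CPM), Pbx3 (342 and 359 CPM) and Hoxa9 (46.9 and 62.6 CPM).

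Pitx1 rested on few UMIs. Skeletal-like nuclei held 12 UMIs in 11 nuclei, or 11.7 CPM (6.04 to 20.4). Myogenic-like, endothelial-like and erythroid-like nuclei held 1 UMI each, and immune-like nuclei 0 (up to 1.84 CPM). Skeletal-like nuclei were at least 6.36-fold above immune-like and 10.5 (1.55 to 447) above myogenic-like nuclei. Over erythroid-like nuclei the ratio was 1.98 (0.293 to 84.7) and over endothelial-like nuclei 2.12 (0.313 to 90.5), so no difference from either was detectable at this depth. The related gene Pitx3 had 9 UMIs in myogenic-like and 0 in skeletal-like nuclei.

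Hoxa9 and Hoxa10, neighbours in the HoxA cluster, were both highest in skeletal-like and next in myogenic-like nuclei. Hoxa9 had 63 UMIs in 41 skeletal-like nuclei, or 61.4 CPM (47.2 to 78.5), 18 UMIs in 16 myogenic-like nuclei, or 20.1 CPM (11.9 to 31.8), 1 UMI in endothelial-like and 2 in immune-like nuclei. Hoxa10 had 25 UMIs in 21 skeletal-like nuclei, or 24.4 CPM (15.8 to 36.0), 6 in myogenic-like nuclei, or 6.70 CPM (2.46 to 14.6), 0 in endothelial-like and 1 in immune-like nuclei. Both were at 2 UMIs or fewer in each of the other classes. The ratio of skeletal-like over myogenic-like nuclei was 3.05 (1.78 to 5.48) for Hoxa9 and 3.63 (1.45 to 10.8) for Hoxa10. Over immune-like nuclei it was 50.1 (13.3 to 423) and 39.8 (6.51 to 1632). Over endothelial-like nuclei Hoxa9 was 11.1 (1.92 to 446) and Hoxa10 at least 1.47-fold, which is short of a call. Myogenic-like over immune-like nuclei was 16.4 (3.93 to 146) for Hoxa9, and with Meis1 at 4.43 (2.62 to 7.75) these were the 2 of 4 members called there (22.6% of genes). Skeletal markers stood at 677 CPM in the myogenic-like nuclei, with 21 of 25 present, and their part in the HoxA levels was not tested.

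Hoxa11 was nearly absent from the counts. It had 0 UMIs among the 1026523 of the skeletal-like nuclei, which allows up to 2.92 CPM, and 0 among those of the myogenic-like nuclei, which allows up to 3.35 CPM. The only UMI in a named class, 0.613 CPM (0.0155 to 3.41), was in an immune-like nucleus of the cluster led by Ltf and S100a9. No ratio could be given. Its antisense neighbour Hoxa11os had 3 UMIs in skeletal-like nuclei, Hoxa13, the next gene toward the end of the cluster, 1, and Hoxd11, its relative in the HoxD cluster, 3.

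Gene length weighs on these counts, because a nucleus holds much unspliced RNA, so levels were compared between genes only per kilobase. Per kilobase of gene span, skeletal-like levels were 7.68 CPM for Hoxa9, 2.52 for Hoxa10, 2.29 for Tbx18, 1.79 for Pbx3, 1.05 for Pitx1, 0.812 for Meis2 and 0.609 for Meis1. Per kilobase of exon they were 59.2 CPM for Pbx3, 13.8 for Tbx18, 13.7 for Meis2, 10.999 for Hoxa9, 8.05 for Meis1, 7.45 for Hoxa10 and 4.40 for Pitx1. Hoxa11, with 0 UMIs and the shortest span (3.71 kb), was not placed on either scale. The compact Hoxa9 gene was thus first on one scale and the long Pbx3 gene on the other. Some pairs kept their order on both scales, as Hoxa9 over Hoxa10 and Meis2 over Meis1 did, and the comparisons between classes, which keep the gene fixed, do not turn on this.

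The share of nuclei with a UMI was compared after thinning every nucleus to 500 UMIs, with the immune-like share beside it as background. Pbx3 was then found in 14.2% of skeletal-like nuclei (9.41 to 20.3, exact binomial interval) and 7.26% of immune-like nuclei (5.11 to 9.95). Meis2 was found in 7.39% (3.99 to 12.3) against 0.207%, and Meis1 in 5.11% (2.36 to 9.49) against 1.04% (0.338 to 2.404). Hoxa9 was found in 3.41% (1.26 to 7.27), Tbx18 in 2.84% (0.929 to 6.505), Hoxa10 in 1.705% (0.353 to 4.900) and Pitx1 in 1.14% (0.138 to 4.04), each against 0 of 482 immune-like nuclei, which allows a share of up to 0.622%. The Hoxa10 and Pitx1 intervals reached below that limit, so no difference was detectable for them at this depth. Each share is 1 random draw: drawn again in the subclusters described further on, Pbx3 was in 14 of 106 and 4 of 70 nuclei and Pitx1 in 0 of both. Before thinning, with medians of 3943 and 2855 UMIs, the shares were 48.3% and 25.9% for Pbx3, 34.7% and 1.87% for Meis2, 30.1% and 3.32% for Meis1, 23.3% and 0.415% for Hoxa9, 19.9% and 0% for Tbx18, 11.9% and 0.207% for Hoxa10, and 6.25% and 0% for Pitx1. In endothelial-like nuclei Pbx3 was in 19.4% after thinning (8.19 to 36.0) and 55.6% before.

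Of the 176 skeletal-like nuclei, 37 held a UMI of none of the 8 genes, 54 of 1, 39 of 2, 23 of 3, 13 of 4, 6 of 5 and 4 of 6. The median depth was 1491 UMIs in nuclei with none, 2997.5 with 1, 5631 with 2, 10027 with 3 and 12598 with 4, and 7276 and 12788 in the few nuclei with 5 and 6. Meis1 and Meis2 were seen together in 25 nuclei, Hoxa9 and Hoxa10 in 12, and Meis2 and Hoxa9 in 20. Of 35 nuclei with Tbx18, 26 also held Pbx3, as did 17 of 21 with Hoxa10. Nuclei with Pbx3 had a median of 8177 UMIs and those without 2098, so co-detection moves with depth, and its part was not tested.

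Reclustering split the skeletal-like nuclei into a larger subcluster of 106 nuclei (median 7827 UMIs) and a smaller one of 70 (median 1500.5 UMIs). In the smaller one the osteoblast genes Sp7, Ibsp, Ifitm5 and Bglap were at 0, and 58 of its 63 UMIs of the progenitor and fibroblast genes Dpp4 and Pgr came from 4 nuclei, so neither was given a name. Pbx3 was 395 CPM in the larger subcluster (354 UMIs in 71 nuclei) and 131 CPM in the smaller (17 UMIs in 14 nuclei), a ratio of 3.01 (1.85 to 5.22). It was the 1 member of 7 called between the subclusters, where 14.6% of genes were 2-fold higher and 8.85% lower in the larger one. The median log2 ratio was 0.15 for the members with 0.5 added to each count, and 0.55 without it. Over all genes it was 0.07 with 0.5 added. Depth differed with Pbx3 between the subclusters, and its part was not tested. Meis2 was 166 and 154 CPM, a ratio of 1.08 (0.672 to 1.81), and Meis1 80.3 and 116 CPM, a ratio of 0.693 (0.393 to 1.30). Tbx18 was 68.0 and 46.3 CPM (1.47, 0.637 to 4.15), Hoxa9 59.1 and 77.2 CPM (0.765, 0.385 to 1.69) and Hoxa10 25.6 and 15.4 CPM (1.66, 0.410 to 14.5). These intervals held 1, so no difference was detectable at this depth. The Pbx3 ratio was 0.972 when nuclei were held to the mitochondrial limit of 0.5% used at day 1.

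**Figure D3:**
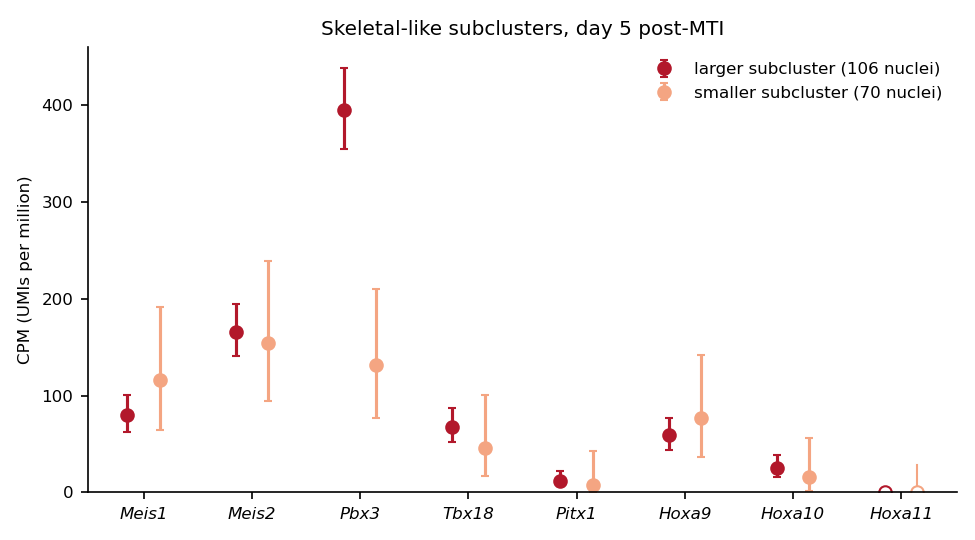
Level of each gene (y axis, CPM) in the larger and the smaller skeletal-like subcluster at day 5 post-MTI, with exact 95% Poisson intervals; open points had 0 UMIs. The intervals overlap for all genes but Pbx3, at 395 and 131 CPM.

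The muscle nuclei also held unlike groups. The myogenic-like class joined a cluster of 101 nuclei led by the fibre genes Myh1, Trdn and Myot with one of 26 nuclei led by Pax7, the satellite cell gene, and Chodl. The second was named on 2 markers among its 10 leading genes only. Meis1 was 68.5 CPM (48 UMIs) in the fibre-led cluster and 15.4 CPM (3 UMIs) in the Pax7-led one, a ratio of 4.45 (1.43 to 22.3) for the former. Pbx3 went the other way, at 133 CPM (93 UMIs) and 329 CPM (64 UMIs), a ratio of 2.48 (1.77 to 3.44) for the Pax7-led cluster. The Pax7-led nuclei thus had more Pbx3 and less Meis1, where 24.9% of genes were 2-fold higher and 16.5% lower in them. Hoxa9 was 20.0 CPM (14 UMIs) in the fibre-led cluster and 20.6 CPM (4 UMIs) in the Pax7-led one, and Hoxa10 5.71 CPM (4 UMIs) and 10.3 CPM (2 UMIs). Endothelial markers summed to 3033 CPM in the myogenic-like class. Of these, Pecam1 was 7.82 CPM and Cdh5 1.12 CPM, against 1729 and 939 CPM in endothelial-like nuclei. Most of the sum thus came from other genes of the list, and its part was not tested.

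The genes most like each member were sought over the 13 clusters of the MTI library, by Pearson correlation of log2(CPM + 10) among 9546 genes with at least 50 UMIs. The clusters share 1 library and differ in depth, so r is a description. Tbx18 lay closest to Angptl1 (r = 1.00), C1s1 (0.97), Col9a3, Panx3 and Ogn (0.95). Of the 68 Tbx18 UMIs, 67 were in the skeletal-like cluster, so its r turned mainly on that 1 cluster. Meis2 lay closest to Scube1 (0.98), Tspan11 (0.98), Gm13832, Ibsp (0.97) and Scarf2 (0.96). Hoxa9 lay closest to Adgrl1 (0.95), Ptpn13, Cbx6, Osbpl5 and Lgr4 (0.91), Meis1 to Hhipl1 (0.78), Eif2d, Gnl2, Rasl12 and Spata1 (0.74), and Pbx3 to Trio (0.96), Luzp1, Ercc6l2, Clasp2 and Suclg2 (0.93). Angptl1 was itself a leading gene of the skeletal-like cluster, as was Col9a1, which pairs with Col9a3 in a cartilage collagen. Between members r was 0.72 for Tbx18 and Hoxa9, 0.64 for Meis2 and Tbx18, 0.52 for Meis1 and Tbx18, 0.51 for Meis1 and Hoxa9, 0.41 for Meis1 and Meis2, and -0.26 for Meis2 and Pbx3. With Pbx3, r was also 0.26 for Hoxa9, 0.21 for Tbx18 and -0.12 for Meis1, so Pbx3 followed none of these closely. Pitx1, Hoxa10 and Hoxa11 had under 50 UMIs and were not compared.

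Other TALE genes were higher in some comparisons and lower in others. Pknox2, a relative of the MEIS genes, was 199 CPM in skeletal-like and 4.90 CPM in immune-like nuclei, a ratio of 40.6 (20.2 to 95.2), and was at least 11.99-fold higher in skeletal-like than in endothelial-like nuclei. It was highest in myogenic-like nuclei, at 411 CPM, a ratio of 0.483 (0.405 to 0.575) for skeletal-like over myogenic-like nuclei, where 16% of all genes tested were 2-fold lower. Pknox2 thus stood in both skeletal-like and muscle nuclei, as Meis1 did. Meis3 was higher in skeletal-like than in immune-like nuclei, at 2.98 (1.19 to 8.12), and Pbx2 higher than in myogenic-like nuclei, at 3.92 (1.59 to 11.6). Tgif1, a TALE repressor, was lower in skeletal-like nuclei than in all 3 of the other classes, at 0.359 (0.186 to 0.649) over immune-like, where 21.2% of genes were lower, 0.247 (0.102 to 0.621) over endothelial-like, where 14.8% were, and 0.2105 (0.108 to 0.382) over myogenic-like nuclei.

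The 4 Hox clusters differed in which class held them. In skeletal-like over immune-like nuclei, 5 of 5 HoxA genes with at least 10 UMIs were higher (Hoxa3, Hoxa5, Hoxa7, Hoxa9 and Hoxa10). So were 6 of 6 HoxC genes, beside 24.8% of all genes. The listed HoxA genes summed to 7 UMIs in immune-like nuclei and the HoxC genes to 9. All of them thus reached 10 UMIs only through skeletal-like nuclei, and these counts are descriptions and no test. Of 3 HoxB genes, Hoxb6 was higher and Hoxb3 and Hoxb4 were lower, as were 21.2% of all genes. Skeletal-like and myogenic-like nuclei shared the HoxC genes: Hoxc4 was 77.9 and 51.4 CPM, Hoxc8 59.4 and 49.2 CPM and Hoxc9 39.0 and 27.9 CPM, and none of the 7 tested was 2-fold higher in skeletal-like nuclei, while Hoxc11 was lower. Of all genes tested over myogenic-like nuclei, 26.2% were higher and 16% lower. Among the HoxA genes only Hoxa9 and Hoxa10 were higher in skeletal-like than in myogenic-like nuclei, of 5 tested. Hoxa3, at the other end of the cluster, was 22.4 and 25.7 CPM in the same classes.

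Endothelial-like nuclei carried another set, with Hoxb6 at 243 CPM (44 UMIs in 21 of 36 nuclei), against 19.5 CPM in skeletal-like nuclei, a ratio of 0.0802 (0.0448 to 0.139) for skeletal-like over endothelial-like nuclei. Hoxb3 was 71.8 and 3.897 CPM, Hoxd3 77.3 and 8.77 CPM, Hoxd4 71.8 and 3.897 CPM and Hoxa3 55.2 and 22.4 CPM in endothelial-like and skeletal-like nuclei. These are anterior or central Hox genes, while the posterior Hoxa9 and Hoxa10 held 1 and 0 UMIs in the endothelial-like nuclei. Against these nuclei 5 of 6 HoxC genes and 2 of 5 HoxA genes (Hoxa7 and Hoxa9) were higher in skeletal-like nuclei, beside 18.8% of all genes. Lower were 3 of 3 HoxB and 2 of 2 HoxD genes, beside 14.8% of all genes. Here too a gene could enter through the class where it was high, so these counts are descriptions and no test.

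**Figure D4:**
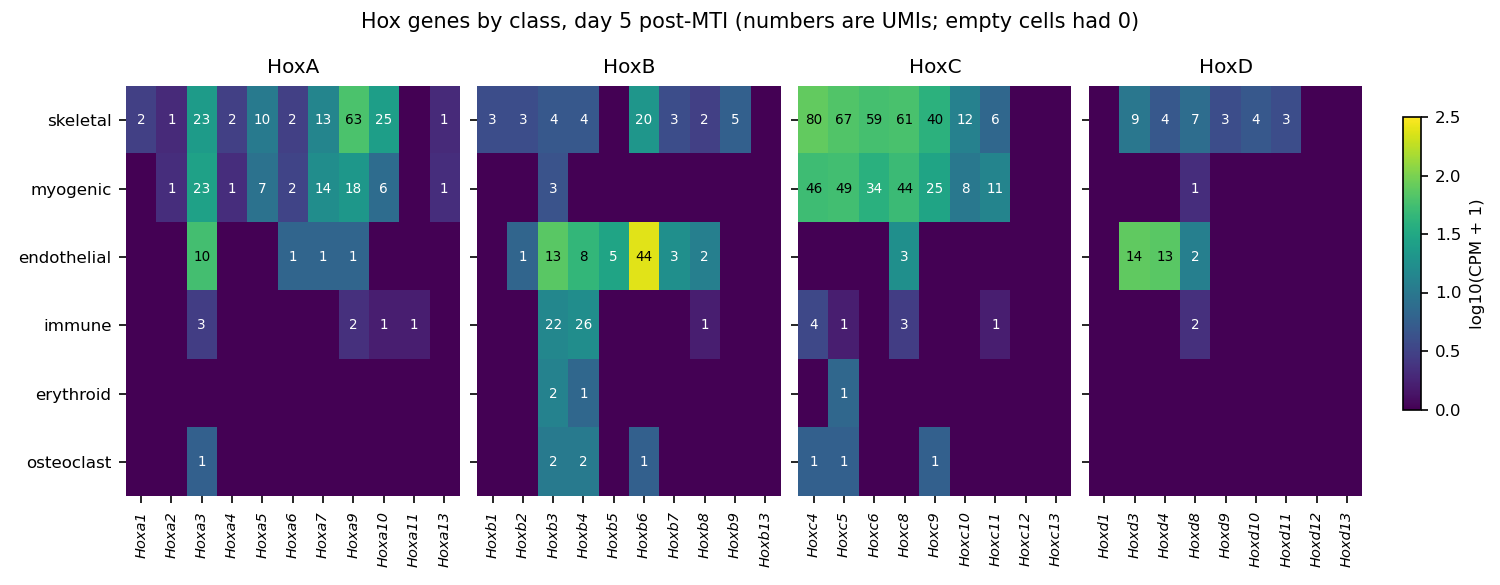
Level of every Hox gene (colour, log10 of CPM + 1) by class of nuclei at day 5 post-MTI, with genes in cluster order and UMIs printed in each cell. Skeletal-like nuclei hold 63 UMIs of Hoxa9 and 25 of Hoxa10, HoxC genes fill skeletal-like and myogenic-like nuclei, and endothelial-like nuclei hold 44 UMIs of Hoxb6.

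Other limb factors set the members in context. Of 12 further limb patterning genes measured against immune-like nuclei, 12 were higher in skeletal-like nuclei (24.8% of all genes), and against endothelial-like nuclei 6 of 12 were (18.8%). The whole list of these genes summed to 35 UMIs in immune-like and 1760 in skeletal-like nuclei. A gene could thus enter through skeletal-like nuclei alone, so these counts are descriptions and no test. Prrx1, which marks limb mesenchyme, was 905 CPM in skeletal-like, 171 CPM in myogenic-like and 4.90 CPM in immune-like nuclei. Shox2 was 58.5 CPM and Lmx1b, which sets the dorsal side of the limb, 37.0 CPM in skeletal-like nuclei. Of the T-box genes other than Tbx18, 4 of 4 were higher than in immune-like nuclei (24.8% of all genes). Over endothelial-like nuclei 1 of 4 (Tbx15) was (18.8%), and over myogenic-like nuclei 1 of 4 (Tbx2, 26.2%). Immune-like nuclei held 19 UMIs of the listed T-box genes and skeletal-like nuclei 651, so these counts too are descriptions and no test. The 7 listed T-box genes summed to 634 CPM in skeletal-like and 16.6 CPM (3 UMIs) in endothelial-like nuclei. The median log2 ratio there was 2.62, and -0.003 with a class at 0 set to 3 UMIs. Tbx15 was 586 CPM in skeletal-like and 558 CPM in myogenic-like nuclei against 9.80 CPM in immune-like nuclei, a ratio of 59.8 (36.5 to 105) for the first over the last. Tbx15 thus did not separate skeletal-like from muscle nuclei as Tbx18 did. The hindlimb gene Tbx4 had 10 UMIs in skeletal-like nuclei and the forelimb gene Tbx5 had 5, against 8 and 0 in myogenic-like nuclei, beside the 12 and 1 UMIs of Pitx1.

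At day 1 post-fracture the members were too thinly sampled to order the classes. This library gave 68 skeletal-like nuclei (35578 UMIs, median 474), 557 myogenic-like (339259, median 495) and 281 immune-like nuclei (96557, median 326), with 62.3% of filtered nuclei unnamed and no vascular cluster named. Myogenic markers made up 23582 CPM of the skeletal-like and 40080 CPM of the immune-like nuclei, beside 118452 CPM in the myogenic-like nuclei. In the 43464 barcodes with under 200 genes, too few to be kept as nuclei, they were 49418 CPM. Skeletal markers were 3373 CPM in the skeletal-like nuclei and 928 CPM in those barcodes. Immune markers were 2185 CPM in the immune-like nuclei, little above the 1948 CPM in those barcodes and the 2084 CPM of an unnamed cluster, so the list as a whole does not set this class apart. The part of free RNA in the member levels was not tested, so each is given beside its level in those barcodes.

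**Figure D5:**
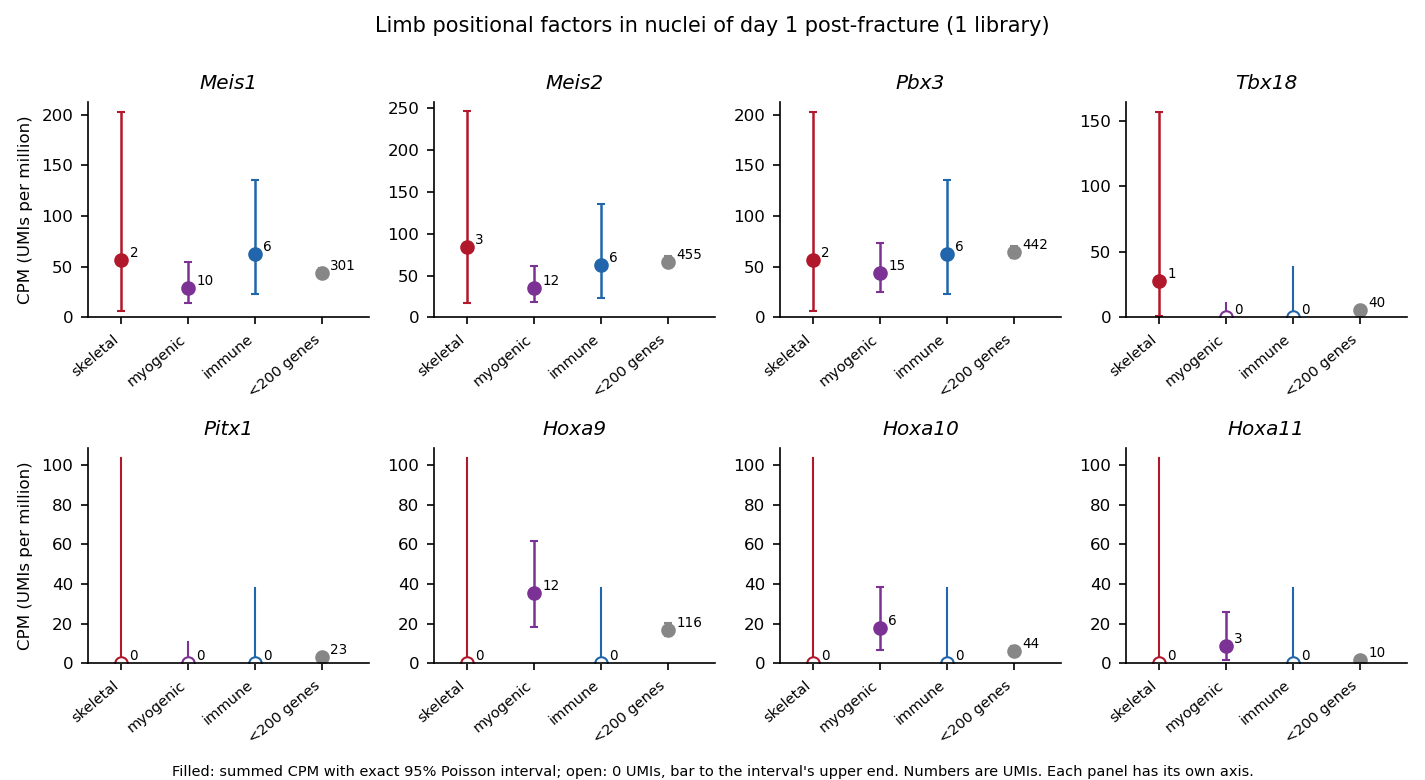
Level of each gene (y axis, CPM; each panel has its own axis) in the 3 named classes of nuclei at day 1 post-fracture and in barcodes with under 200 genes. Filled points have exact 95% Poisson intervals, open points had 0 UMIs, and numbers are UMIs. Skeletal-like nuclei hold 3 UMIs or fewer of every gene, and Hoxa9 has 12 UMIs in myogenic-like nuclei and 0 in the other named classes, which were less deeply sampled.

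Skeletal-like nuclei at day 1 held 3 UMIs of Meis2, 2 of Meis1, 2 of Pbx3 and 1 of Tbx18, and 0 of Pitx1 and the HoxA genes, which allows up to 84.3 CPM. Immune-like nuclei held 6 UMIs each of Meis1, Meis2 and Pbx3, or 62.1 CPM (22.8 to 135), and 0 of the other 5, which allows up to 31.1 CPM. No member reached 10 UMIs in these 2 classes together, so none was tested between them (16.5% of genes were 2-fold higher in skeletal-like nuclei). In barcodes with under 200 genes, Meis1 was 44.0 CPM, Meis2 66.4 CPM and Pbx3 64.5 CPM, inside the intervals of both classes. None of the 8 was 2-fold higher in immune-like nuclei than in those barcodes (16.1% of genes). In skeletal-like nuclei 1 of 8 was (17.5%), Tbx18 by its 1 UMI, with a ratio of 4.81 (0.119 to 28.4). A call needed a UMI in the class of nuclei, so members at 0 there could not be called. Neither count is a test. In skeletal-like over myogenic-like nuclei 1 of 4 members was called (24%), Meis2 at 2.38 with an interval of 0.432 to 8.83.

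At day 1 the UMIs of the HoxA members in named classes were in muscle nuclei. The other classes were less deeply sampled, and for Hoxa9 the interval of skeletal-like over myogenic-like nuclei ran from 0 to 3.43. Myogenic-like nuclei held 12 UMIs of Hoxa9, or 35.4 CPM (18.3 to 61.8), 6 of Hoxa10, or 17.7 CPM (6.49 to 38.5), and 3 of Hoxa11, or 8.84 CPM (1.82 to 25.8), against 16.9, 6.42 and 1.46 CPM in barcodes with under 200 genes. The ratios were 2.09 (1.05 to 3.79), 2.75 (0.959 to 6.48) and 6.06 (1.07 to 23.5), and these were the 3 of 8 members called in a comparison where 7.36% of genes were. Of all 7 HoxA genes measured 5 were higher (Hoxa5 and Hoxa7 beside the 3 members), and of 7 HoxC genes 6 were. Meis1 (10 UMIs, 29.5 CPM), Meis2 (12 UMIs, 35.4 CPM) and Pbx3 (15 UMIs, 44.2 CPM) were less than 2-fold below their levels in those barcodes, and Tbx18 and Pitx1 were at 0, which allows up to 8.84 CPM. Of these UMIs, 10 of Hoxa9, 5 of Hoxa10 and 2 of Hoxa11 came from 1 myogenic-like cluster of 291 nuclei, led by the muscle genes Klhl38 and Asb10 among others. The unnamed nuclei held 8 UMIs of Hoxa9, 10 of Hoxa10 and 0 of Hoxa11, or 10.9, 13.7 and up to 4.10 CPM.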

How the data were processed

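Nuclei were sorted from pooled tissue and sequenced with 10x Genomics 3' chemistry. The authors deposited, for every gene, the UMI counts of each barcode as whole numbers with no normalization. Per the labels, Cell Ranger 7.0.1 and mm10 were used. The labels' protocol also names a human reference, whereas the gene identifiers are those of mouse. Nuclei with 200 to 5000 genes were kept, with limits of 0.5% mitochondrial and 2.5% ribosomal UMIs at day 1 and 5% and 2% after MTI, as in the study's methods. The study also removed myogenic nuclei, which were kept here. Its sets of nuclei were smaller than those used here, by far at day 1. Clustering used Seurat 5.3.0 in R 4.3.3 (2000 variable genes; 20 components and resolution 1.7 at day 1, 30 and 1.0 after MTI; 15 and 0.5 for the skeletal-like subclusters). The 8 genes and the other listed positional genes were left out of it. A cluster was named where at least 4 markers of a class had 3 or more UMIs and were 1.5-fold up. The interval of the pooled fold had to start at 1.5 or more, or 2 markers had to be among the 10 leading genes. A marker among the 100 leading genes was also needed. So was a median depth no more than 3 times below that of the filtered nuclei, or else a marker among the 10 leading genes. The number of markers was raised after the first clusters were seen. A doublet caller marked 3 of 5523 nuclei at day 1, and so had not worked, and 0 of 1398 after MTI; no nucleus was removed on it.

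UMIs were summed per class and given per 1000000 UMIs of the class (CPM) with exact 95% Poisson intervals; ratios have exact conditional binomial intervals and shares Clopper-Pearson intervals, in scipy 1.17.1. Differences of 2-fold with at least 10 UMIs in both classes together were called, and a class at 0 was set to 3 UMIs per class. A gene could thus enter a comparison through the class where it was high. PCR duplicates were removed by UMI, and intervals cover counting error only. All 8 members were named, as were genes of the other lists that were called, and the 5 most alike genes of each member with 50 UMIs; Pitx3, Tbx4, Tbx5, Hoxa11os, Hoxa13, Hoxd11, Shox2 and Lmx1b and the levels of uncalled Hox genes were added as context after their values were seen. The members and lists were chosen with earlier results of these data known. Some genes of the lists are not reported here. A total of 13 processing alternatives was run.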

Additional observations from a re-analysis of the deposited data

Results flagged for a closer look

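The filters removed 292 barcodes of the MTI library, which entered no comparison, and 7 of the 8 members had a signal there above the limit that a count of 0 allows. Pbx3 was at 262 CPM in them, Meis2 at 75.4 CPM, Meis1 at 41.96 CPM, Hoxa9 at 32.1 CPM, Tbx18 at 13.1 CPM, Hoxa10 at 9.83 CPM and Pitx1 at 5.90 CPM, each over 1525336 UMIs. Skeletal markers were 10478 CPM in these barcodes and 5034 CPM in the nuclei kept. The 21 barcodes with more than 5000 genes held Meis2 at 135 CPM, Meis1 at 56.9 CPM and Pbx3 at 386 CPM, with 48 Pbx3 UMIs in 1 barcode. The 261 barcodes removed for mitochondrial UMIs held Pbx3 at 184 CPM, Hoxa9 at 36.3 CPM and 3 UMIs of Hoxa11, or 3.30 CPM. No group held enough samples for a check of samples far from the others.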

How the results depend on the processing

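No paired analysis was possible because each condition was 1 library, and for the same reason no library could be left out. Of 50 recomputed counts after MTI 43 stayed within 1.5 times the reported count, and 15 of 22 at day 1. After MTI 4 of the 43 could not move, since 0 doublets were called. At day 1 the count over immune-like nuclei, where no member was tested as reported, was 0 under every setting that gave both classes. All 7 day 1 moves were over myogenic-like nuclei. Thinning every nucleus to 500 UMIs before summing moved the members called in skeletal-like nuclei from 6 to 2 over immune-like, from 5 to 0 over endothelial-like and from 6 to 1 over myogenic-like nuclei. Fewer members then reached 10 UMIs, and a class at 0 was still set to 3 UMIs, a higher level in a smaller sum. How much each weighed was not tested. Between the skeletal-like subclusters the 1 call became 2 with a minimum of 500 genes, 3 with a mitochondrial limit of 0.5%, 3 at 1.5-fold and 0 at 2 times the resolution, and Pbx3 turned to 0.972 at the limit of 0.5%. At day 1 the 1 call over myogenic-like nuclei became 2 with the positional genes kept in the clustering, with a mitochondrial limit of 5%, at 2 times the resolution or at 1.5-fold, and 0 with each nucleus assigned by its own markers, at 3-fold or after thinning. Of 193 ratios after MTI 170 kept their call or size, and 3 reversed: besides Pbx3 above, Pitx1 over endothelial-like nuclei, at 0 after thinning and 0.663 as a mean over nuclei. The cause of these changes other than thinning was not tested. Meis1 over myogenic-like nuclei was 0.749 with the limit of 0.5%. All 43 day 1 ratios stayed as reported. A resolution 0.5 times the main one and single-nucleus assignment gave no subclusters; no skeletal-like cluster was named at day 1 with a minimum of 500 genes, and no immune-like one there with that minimum, a limit of 5% or the lower resolution. Depth limits what Hoxa11, Pitx1 and every day 1 level can show: 0 UMIs allow up to 2.92 CPM in skeletal-like nuclei after MTI and 84.3 CPM at day 1.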
